A study of Mus musculus with 12 samples.

Results

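The 4 libraries described here are the wild-type (WT) sorted monocytes, replicates 1 and 2, and the WT monocytes kept for 2 days with GM-CSF and IL-4, replicates 1 and 2. They were chosen by their titles from 12 libraries of poly(A) RNA in 6 groups of 2. All mice were of C57BL/6 background and all cells came from bone marrow. The other groups are WT cells after 1 day of the same culture, and the same 3 stages from Nr4a3 KO mice, which carry no other allele named in the labels. Sorted cells are labelled undifferentiated and had no cytokine, so the comparison joins culture, GM-CSF, IL-4 and time, and no library of cells cultured without the cytokines is among the 12. Per the series design the 2 samples of a group come from independent experiments. The number of mice behind a library was not given in the sources used here, so p-values measure the spread between these samples.

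Monocytes are short-lived leukocytes that leave the bone marrow for the blood and tissues, where they can become macrophages or dendritic cells, the cells that take up antigen and present it to T cells. GM-CSF signals through the beta common receptor chain and STAT5, and IL-4 through STAT6, and the pair is widely used to grow dendritic cells from monocytes in culture. Monocyte-derived dendritic cells are known for MHC class II, the integrin CD11c and ligands that act on T cells, and mature ones for the chemokine receptor CCR7 and for NF-kB activity.

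The reads counted in genes were 12961706 and 10687668 in the WT monocyte libraries and 8770888 and 7787493 at WT day 2, inside the range of the series (5905266 to 18447405). Values given as pairs are replicate 1 and then replicate 2, in CPM, the usual read counts scaled to a common library size, here after TMM scaling. Changes are log2 fold changes of WT day 2 over WT monocytes ± SE from edgeR's quasi-likelihood test, fitted on all 12 libraries, with Benjamini-Hochberg adjustment over 14034 genes. A gene is said to rise or fall, or is called, where its adjusted p was under 0.05 in the fit on all libraries and again in each of the 4 fits that left out 1 of the 4 WT libraries. Genes that passed only with all libraries are named as such. The deposited files carry dates in their names, which place monocytes and day 2 in different experiments, so day of culture and experiment cannot be told apart. The file of WT day 1 replicate 2 is named for 16 h, while its label says day 1, and the label was followed wherever day 1 values or tests are given. Day 2 replicate 1 held Xist, transcribed from the inactive X, at 885 CPM and no read of the Y-linked Ddx3y. Replicate 2 held them at 1.01 and 63.0 CPM and the monocytes at 0 and at 50.4 and 73.6 CPM, so replicate 1 also differs from the other 3 libraries in sex. In bulk RNA, fewer cells of a type and less RNA per cell cannot be told apart.

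WT monocyte replicate 2 stood apart from replicate 1. Ribosomal protein genes took 8.38% of its gene reads against 3.81% in replicate 1 and 3.54% and 3.85% at day 2. Among genes with a mean of at least 20 CPM, 1754 of 6873 (25.5%) differed more than 2-fold between the monocyte libraries, against 440 of 6974 (6.31%) between the day 2 libraries. The spread followed exon length. Genes were put in 4 bins of exon length. In the bin with the shortest exons, replicate 2 was higher than replicate 1 by a median of 0.81 on the log2 scale, and in the bin with the longest it was lower (-0.60). The same medians at day 2 were 0.07 and -0.08. The median change from monocytes to day 2 went from -0.18 in the shortest bin to 0.37 in the longest. Without monocyte replicate 2 these medians were 0.17 and 0.09, and without replicate 1 they were -0.37 and 0.79. Calls lay unevenly over length too, with 91 genes higher and 117 lower in the shortest bin and 276 higher and 80 lower in the longest. The part of exon length in the change of single genes was not tested. Because the call rule needs a gene to pass without either monocyte library, no gene called below rests on only 1 of them.

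**Figure D1:**
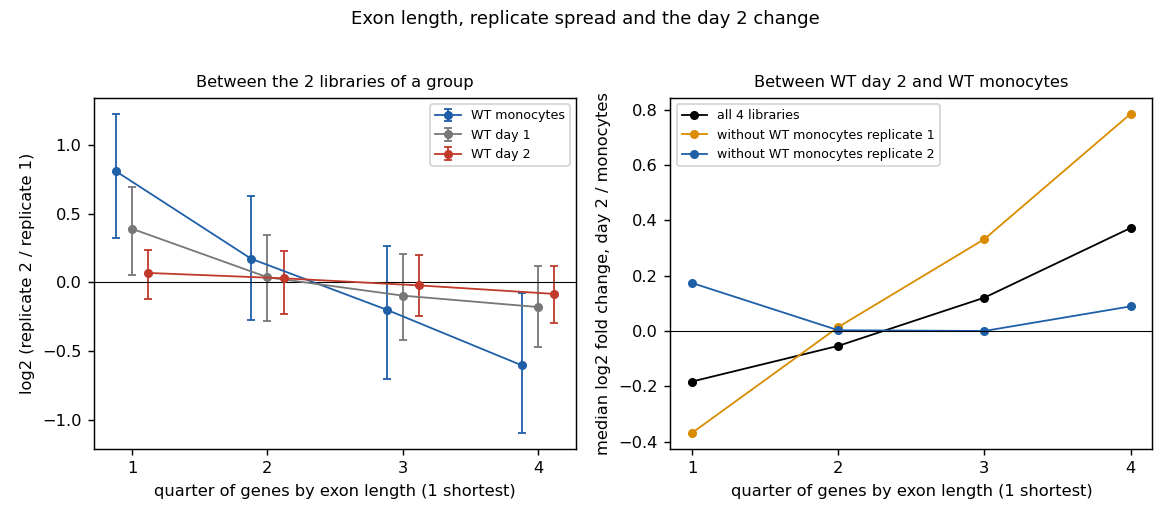
Left, the log2 ratio of replicate 2 to replicate 1 in 4 bins of genes by exon length (points are medians, bars reach the lower and upper quartiles, genes with a mean of at least 20 CPM). Right, the median log2 fold change of WT day 2 over WT monocytes in the same bins with all 4 libraries and without either monocyte library. The monocyte pair falls from 0.81 to -0.60 across the bins while the day 2 pair stays between 0.07 and -0.08.

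Over 2 days of culture, the genes that rose went from a small share of the reads in genes to a larger one. Of 14034 genes tested, 756 rose (5.39%) and 455 fell (3.24%). In the fit on all libraries alone the counts were 1778 higher (12.7%) and 1388 lower (9.89%). The median change over all genes was 0.09. The median of the genes that rose was 3.94 and that of the genes that fell -2.73, and 642 rose and 363 fell at least 4-fold. No gene was called at an absolute log2 change under 1.06. The genes that rose held 1.83% and 1.20% of the reads in genes of the monocytes, 9.12% and 8.35% at day 1 and 16.0% and 16.7% at day 2. Those that fell held 9.32% and 9.92%, then 2.64% and 2.51%, then 1.56% and 1.40%. These shares describe genes chosen for their change. For 8808 genes (62.8%) both day 2 values lay on the same side of both monocyte values, so a lack of overlap between 2 pairs is by itself common here. The 2 libraries that stood apart were WT monocyte replicate 2 and, of the KO cells, that labelled day 1 replicate 1. Without them the median change over all genes was 0.06, and rises outnumbered falls by less than with all libraries. Counts against monocytes given below without these 2 libraries rest on 1 WT monocyte library. Genes in such counts had to pass again only in the fits that left out a WT day 2 library, a laxer rule than that of the calls.

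**Figure D2:**
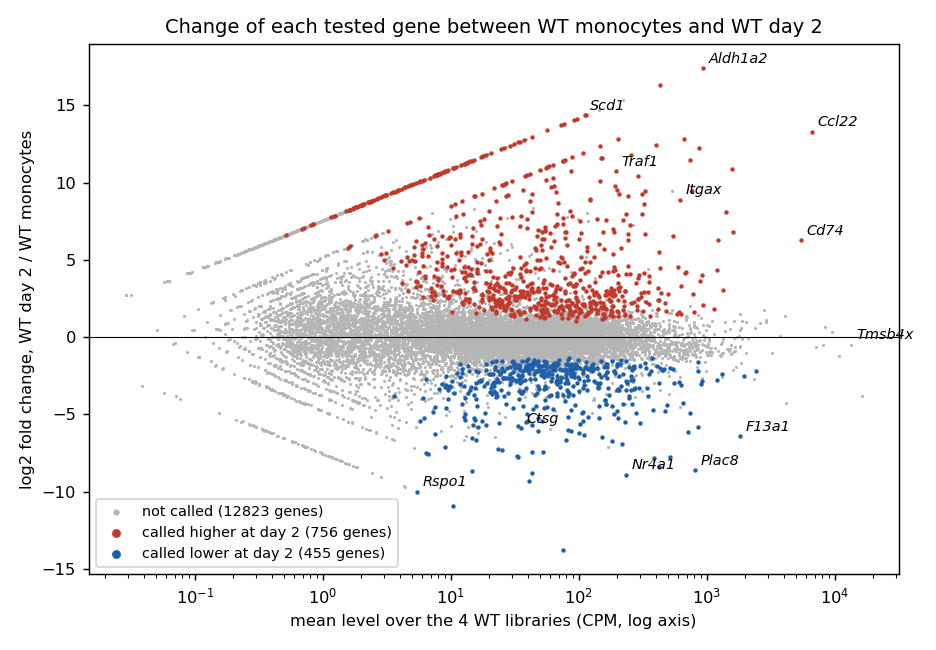
Each point is 1 of the 14034 genes tested, with its mean level over the 4 WT libraries on the x axis (CPM, log axis) and its log2 fold change of WT day 2 over WT monocytes on the y axis. The 756 genes called higher (red) reach larger changes than the 455 called lower (blue). Points on the upper straight line had no reads in the monocytes, and their fitted value depends on the prior count of the fit.

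The labels were compared with 5 markers of each cell type. Among monocyte markers Ly6c2, the Ly6C antigen of classical monocytes, went from 1177 and 2205 CPM to 50.03 and 9.48 CPM (-5.83 ± 1.13, edgeR adjusted p = 0.00470). F13a1, the A subunit of coagulation factor XIII, went from 3342 and 3822 to 47.96 and 36.4 CPM (-6.41 ± 0.43, edgeR adjusted p = 2.02e-05). Both fell. Ccr2, the receptor that brings classical monocytes out of the marrow, went from 1723 and 2768 to 545 and 205 CPM and passed only with all libraries (-2.58 ± 0.54, edgeR adjusted p = 0.00716). Csf1r, the M-CSF receptor, stood at 1177 and 853 CPM and then 939.8 and 378 CPM (-0.62 ± 0.47, edgeR adjusted p = 0.362), and Itgam, the integrin CD11b, at 195 and 134 CPM before and 106 and 77.3 CPM after (-0.85 ± 0.37, edgeR adjusted p = 0.121). Of the dendritic cell markers, 4 of 5 rose. Itgax, the integrin CD11c (ENSMUSG00000030789.9, GRCm38 chromosome 7, 128129547 to 128150657), went from 1.99 and 3.27 to 1477 and 987 CPM (8.88 ± 0.57, edgeR adjusted p = 1.80e-05). H2-Ab1, an MHC class II chain, went from 20.5 and 41.2 to 2512 and 2303 CPM (6.29 ± 0.50, edgeR adjusted p = 3.74e-05). Mgl2, the lectin CD301b, went from 2.61 and 1.79 to 946 and 2134 CPM (9.43 ± 1.09, edgeR adjusted p = 0.000288) and Cd86, a costimulatory ligand, from 36.6 and 49.8 to 141 and 431 CPM (2.73 ± 0.46, edgeR adjusted p = 0.00214). Cd209a, the mouse DC-SIGN gene, was the exception at 10.7 and 16.7 CPM before and 7.13 and 45.02 CPM after (0.93 ± 0.88, edgeR adjusted p = 0.477), with the day 2 libraries on either side of the monocytes.

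Genes of classical monocytes, the cells that leave the marrow in inflammation, fell. Of 18 classical monocyte genes tested, 7 fell and none rose (11 and 0 with all libraries), with a median of -4.40 against 0.09 over all genes. Plac8, a small cysteine-rich protein abundant in classical monocytes (ENSMUSG00000029322.12, GRCm38 chromosome 5, 100553725 to 100572245), stood at 1122 and 2111 CPM in monocytes, 2.89 and 10.9 CPM on day 1 and 3.68 and 4.55 CPM on day 2 (-8.62 ± 1.11, edgeR adjusted p = 0.000514). Ifitm6, of the interferon-induced transmembrane family, went from 239.8 and 483 to 1.04 and 5.94 CPM (-6.70 ± 0.86, edgeR adjusted p = 0.000482). Chil3, the chitinase-like lectin Ym1, spanned 1516 and 4095 CPM in monocytes and 812 and 975 CPM on day 2 (-1.65 ± 0.90, edgeR adjusted p = 0.208). Its groups did not overlap, and the monocyte libraries differed from each other by more than the nearest values of the groups did.

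Nonclassical monocyte genes, those of the cells that patrol vessels, had 4 of 13 lower and 2 higher (7 and 3 with all libraries), with a median of -2.30. Ace, angiotensin-converting enzyme, went from 40.2 and 27.9 to 0.805 and 0.759 CPM (-5.43 ± 0.57, edgeR adjusted p = 0.000270) and Spn, the sialoglycoprotein CD43, from 457 and 386 to 63.7 and 49.7 CPM (-2.89 ± 0.40, edgeR adjusted p = 0.000776). Nr4a1 and the adhesion molecule gene Ceacam1 also fell. Against the direction of the list, Dusp16, a phosphatase that acts on MAP kinases, rose from 1.84 and 1.37 to 117 and 82.6 CPM (5.93 ± 0.38, edgeR adjusted p = 1.80e-05), as did the enolase gene Eno3. Itgal, the alpha chain of LFA-1, stood at 517 and 296 CPM before and 200.1 and 291 CPM after and did not pass (-0.73 ± 0.43, edgeR adjusted p = 0.240).

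The 3 NR4A genes, orphan nuclear receptors of the immediate early class, differed from each other in direction. Nr4a1 (ENSMUSG00000023034.6, GRCm38 chromosome 15, 101254269 to 101274795) stood at 825 and 111 CPM in monocytes, 0.496 and 0.979 CPM on day 1 and 0.690 and 1.26 CPM on day 2 (-8.90 ± 1.13, edgeR adjusted p = 0.000463). The monocyte libraries differed 7-fold from each other in Nr4a1 and both were far above every cultured library. Nr4a3 (ENSMUSG00000028341.9, GRCm38 chromosome 4, 48045153 to 48086447) had 4 and 0 reads in monocytes, 16.5 and 10.4 CPM on day 1 and 1287 and 1358 CPM on day 2 (12.81 ± 1.97, edgeR adjusted p = 0.00137). Nr4a2 stood at 11.95 and 0 CPM and then 12.3 and 10.50 CPM (0.91 ± 1.33, edgeR adjusted p = 0.653), with overlapping groups. The list of immediate early genes, which holds NR4A genes too, had movers in both directions, with 6 of 22 lower and 3 higher (11 and 4 with all libraries; 10 and 3 without the 2 libraries that stood apart) and a median of -1.44. Ier2 went from 319 and 305 to 13.2 and 17.6 CPM (-4.34 ± 0.32, edgeR adjusted p = 2.74e-05). Fos, a subunit of AP-1, went from 1583 and 462 to 8.51 and 0.632 CPM (-7.79 ± 1.10, edgeR adjusted p = 0.000835). Those that rose were Dusp5, a phosphatase of ERK (5.52 and 2.11 to 171 and 112 CPM; 5.19 ± 0.50, edgeR adjusted p = 0.000107), Ier3 (4.83 and 9.28 to 56.9 and 46.9 CPM; 2.89 ± 0.38, edgeR adjusted p = 0.000531) and Egr2. Atf3, a stress-responsive factor, stood at 317 and 154 CPM before and 219.7 and 135 CPM after (-0.41 ± 0.70, edgeR adjusted p = 0.706).

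Granule protein genes, transcribed in precursors of neutrophils and monocytes, had 5 of 16 lower and none higher (8 and 1 with all libraries), with a median of -2.79. Mpo, myeloperoxidase, went from 154 and 168 to 4.03 and 4.93 CPM (-5.17 ± 0.39, edgeR adjusted p = 2.85e-05). The serine proteases followed, with Prtn3 at 145 and 180.0 CPM before and 1.84 and 3.29 CPM after (-5.99 ± 0.46, edgeR adjusted p = 2.85e-05), Elane at 129 and 188 CPM before and 0.690 and 2.53 CPM after (-6.63 ± 0.66, edgeR adjusted p = 0.000128) and Ctsg at 47.4 and 90.7 CPM before and 0.575 and 1.77 CPM after (-5.88 ± 0.68, edgeR adjusted p = 0.000283). For these 4 genes the 2 monocyte libraries lay within 2-fold of each other. Of 20 neutrophil markers 2 fell (Padi4 and Cd177) and none rose (5 and 1 with all libraries). That is 10% called, near the 8.63% of all genes called, and 8 of the 20 values were positive. The summed level of these markers was 1836 and 5116 CPM in monocytes and 602 and 1378 CPM on day 2. S100a9 and S100a8, the most abundant of them by the mean of the monocyte libraries, were measured with S100a9 at 252 and 1608 CPM before and 94.99 and 314 CPM after and S100a8 at 207 and 1185 CPM before and 65.4 and 220.1 CPM after (edgeR adjusted p = 0.0852 and 0.0625). Monocyte replicate 2 held over 5 times as much of both as replicate 1. The part of neutrophils in the fall of granule genes was not tested.

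Genes of dendritic cell maturation and migration rose together. Of 22 tested, 16 rose and none fell (20 and 0 with all libraries), and all 22 had positive values, with a median of 6.15 (5.53 with genes at 0 reads set to their bound). At day 1 its median was 1.92. Traf1, an adaptor of TNF receptors and a target of NF-kB (ENSMUSG00000026875.14, GRCm38 chromosome 2, 34941750 to 34961772), stood at 0.230 and 0.211 CPM in monocytes, 63.5 and 67.5 CPM on day 1 and 362 and 425 CPM on day 2 (10.73 ± 0.41, edgeR adjusted p = 6.43e-07). Il4i1, a secreted amino acid oxidase that restrains T cells, went from 0.460 and 0.211 to 2061 and 1390.4 CPM (12.22 ± 1.03, edgeR adjusted p = 4.46e-05). Cd83, a surface protein that stabilises MHC class II on mature cells, went from 1.76 and 1.48 to 603 and 693 CPM (8.63 ± 0.85, edgeR adjusted p = 0.000115). Ccr7, the receptor that leads dendritic cells to lymph nodes (ENSMUSG00000037944.8, GRCm38 chromosome 11, 99144196 to 99155077), had 3 reads over both monocyte libraries, 10.1 and 7.34 CPM on day 1 and 853 and 739 CPM on day 2 (a ratio of 5999 for WT day 2 over WT monocytes, exact 95% interval 2052 to 29094, edgeR adjusted p = 0.00267). Such ratios and the bounds below cover counting error only, since these PCR-amplified reads carry no molecular identifiers and are not independent. Fscn1, the actin-bundling protein fascin, had no reads in monocytes, 24.5 and 22.2 CPM on day 1 and 732 and 998 CPM on day 2 (at least 6496-fold higher; adjusted p = 0.00416 by edgeR), where a group with no reads is set to 3 counts over the group. Samsn1, an adaptor, did not pass at 118 and 232 CPM before and 414 and 362 CPM after (1.15 ± 0.47, edgeR adjusted p = 0.104), nor did Il15ra at 14.4 and 8.96 CPM before and 15.4 and 18.1 CPM after (0.52 ± 0.43, edgeR adjusted p = 0.416).

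**Figure D3:**
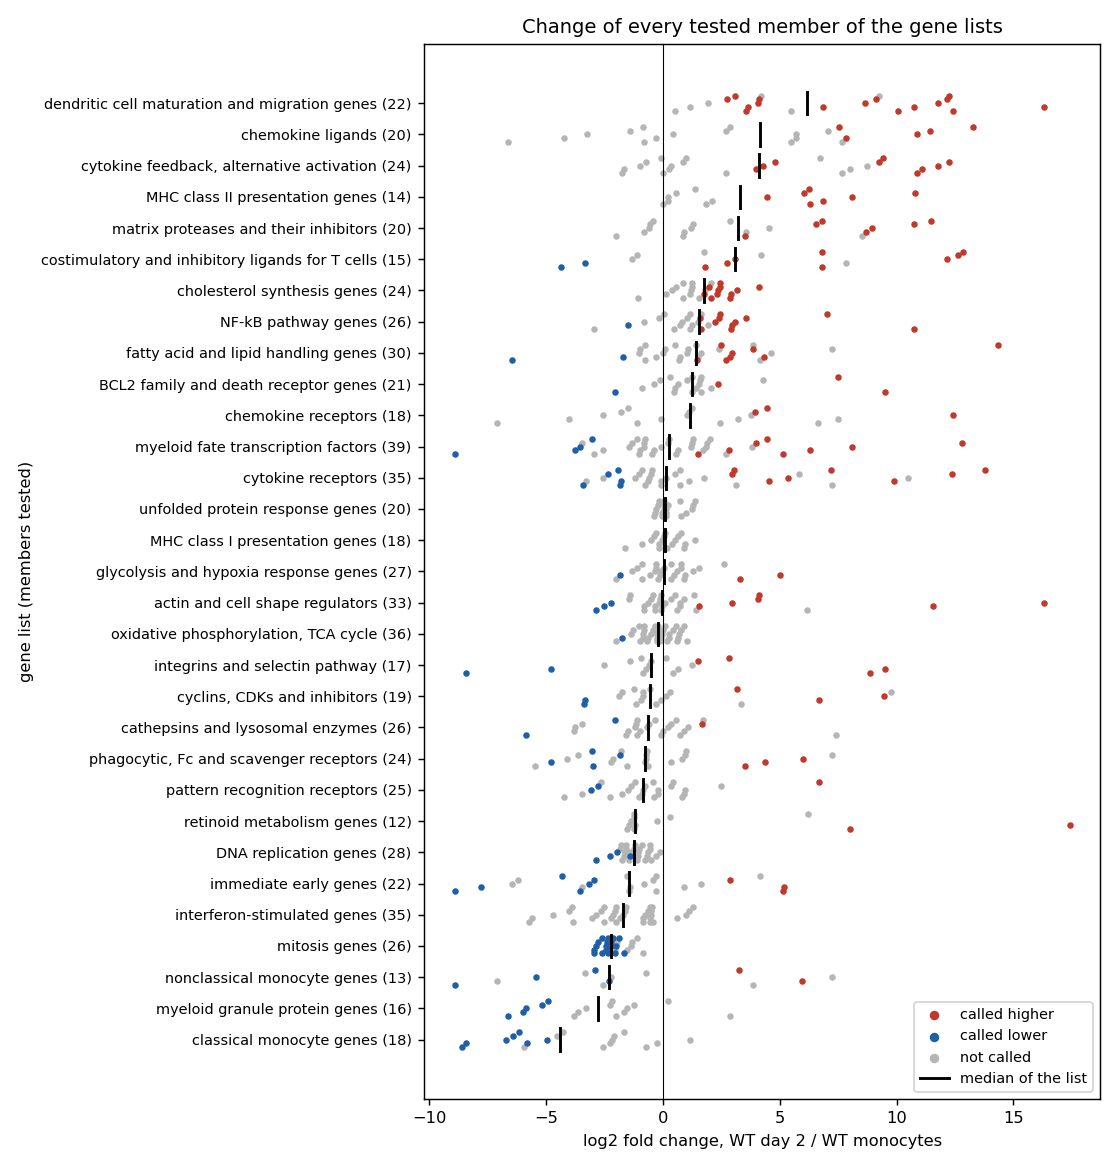
Every tested member of the gene lists, with its log2 fold change of WT day 2 over WT monocytes on the x axis and the lists on the y axis, ordered by median (black bar; members tested in parentheses). Red and blue points are members called higher and lower, and grey points were not called. The medians run from -4.40 for classical monocyte genes to 6.15 for dendritic cell maturation and migration genes.

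Ligands that act on T cells rose in 8 of 15 tested and fell in 2 (10 and 3 with all libraries; 3 more were too low to test), with a median of 3.07. Both known ligands of the inhibitory receptor PD-1 were among them. Pdcd1lg2, PD-L2, had 1 read in monocytes, 68.8 and 118 CPM on day 1 and 405 and 407 CPM on day 2 (a ratio of 9145 for WT day 2 over WT monocytes, exact 95% interval 1641 to 361271, edgeR adjusted p = 1.25e-05). Cd274, PD-L1, went from 4.14 and 2.43 to 342 and 409 CPM (6.82 ± 0.51, edgeR adjusted p = 2.74e-05). Nectin2, a ligand of CD226 and TIGIT, went from 0.766 and 2.11 to 132 and 177 CPM (6.78 ± 0.59, edgeR adjusted p = 5.22e-05). Cd40, the receptor through which T cells license dendritic cells, stood at 24.3 and 29.6 CPM in monocytes and 25.1 and 35.6 CPM on day 1, and at 224 and 229.6 CPM on day 2 (3.07 ± 0.36, edgeR adjusted p = 0.000291), with day 1 values close to those of monocytes (2.90 ± 0.35, edgeR adjusted p = 0.00183 against day 1). The members that fell were Vsir, the checkpoint protein VISTA, and Tnfsf14, the ligand LIGHT. Lgals9, galectin-9, stood at 184 and 172 CPM before and 77.6 and 63.1 CPM after (-1.34 ± 0.46, edgeR adjusted p = 0.0589).

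Chemokines that draw T cells were among the most abundant messages at day 2. Of 20 chemokine genes tested 5 rose and none fell (10 and 2 with all libraries), with a median of 4.16 (2.79 with genes at 0 reads at their bound). Ccl22 (ENSMUSG00000031779.3, GRCm38 chromosome 8, 94745590 to 94751699), a ligand of CCR4, stood at 1.30 and 1.37 CPM in monocytes, 159.6 and 222 CPM on day 1 and 10746 and 15972 CPM on day 2 (13.28 ± 0.92, edgeR adjusted p = 2.33e-05). Ccl17, the other ligand of CCR4, stood at 1.07 and 2.32, then 1411 and 2895, then 2539 and 3739 CPM (10.88 ± 1.42, edgeR adjusted p = 0.000531). Ccl17 thus reached most of its level by day 1 (0.54 ± 0.92, edgeR adjusted p = 0.778 against day 1) while Ccl22 rose again to day 2 (6.13 ± 0.68, edgeR adjusted p = 0.00132). Cxcl16, a membrane-bound chemokine, went from 1.30 and 2.21 to 423 and 230.4 CPM (7.55 ± 0.64, edgeR adjusted p = 4.46e-05), and Cxcl3, which had no reads in monocytes, to 35.2 and 23.6 CPM (at least 221-fold higher; adjusted p = 0.000469 by edgeR). Ccl8 also rose. Ccl9 and Ccl6, chemokines of myeloid cells, were abundant in all 4 libraries, with Ccl9 at 599 and 1738 CPM before and 1028 and 299.9 CPM after and Ccl6 at 492 and 949 CPM before and 586 and 215 CPM after (edgeR adjusted p = 0.510 and 0.413), with overlapping groups. Among 18 chemokine and attractant receptors 3 rose and none fell (5 and 3 with all libraries; 4 and 2 without the 2 libraries that stood apart; median 1.17). Beside Ccr7 they included the complement receptor C3ar1 (3.68 and 1.58 to 60.5 and 57.3 CPM; 4.45 ± 0.79, edgeR adjusted p = 0.00296). Cxcr4, which holds cells in the marrow, stood at 227 and 211, then 14.9 and 13.2, then 129 and 25.3 CPM at the 3 stages (-1.50 ± 0.76, edgeR adjusted p = 0.174).

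Integrins and the selectin pathway moved in both directions, with 4 of 17 higher and 2 lower (5 and 2 with all libraries; median -0.51). Itgae, the CD103 chain that binds E-cadherin, had 2 reads in monocytes and 31.2 and 115 CPM on day 2 (a ratio of 799 for WT day 2 over WT monocytes, exact 95% interval 221 to 6602, edgeR adjusted p = 0.00118). Icam1, a ligand of LFA-1, went from 56.1 and 32.1 to 279.8 and 346 CPM (2.83 ± 0.34, edgeR adjusted p = 0.000351), and Itgb1 rose as well. Itgb7, a partner of gut-homing integrins, was among those that fell. Itgb2, the common beta chain of CD11a, CD11b and CD11c, stood at 1035 and 1294 CPM before and 774 and 424 CPM after (-0.96 ± 0.35, edgeR adjusted p = 0.0711).

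Antigen presentation by MHC class II rose, and class I did not pass. Of 14 class II genes 7 rose and none fell (8 and 0 with all libraries), with a median of 3.28. Cd74, the invariant chain, stood at 143 and 136 CPM in monocytes, 6183 and 4295 CPM on day 1 and 11093 and 10411 CPM on day 2 (6.27 ± 0.42, edgeR adjusted p = 1.86e-05). H2-Aa went from 14.4 and 41.7 to 3573 and 2786 CPM (6.83 ± 0.54, edgeR adjusted p = 3.70e-05) and H2-Eb1 (ENSMUSG00000060586.10, GRCm38 chromosome 17, 34305867 to 34316674) from 6.82 and 14.03 to 3274 and 2411 CPM (8.10 ± 0.58, edgeR adjusted p = 2.47e-05). Ciita, the transactivator of these genes, stood at 4.60 and 3.90 CPM, then 412 and 222 CPM, then 258 and 307 CPM (6.05 ± 0.46, edgeR adjusted p = 2.85e-05), with overlapping values at day 1 and day 2. Ctss, the protease that cuts the invariant chain, was abundant throughout at 1337 and 2107 CPM before and 2265 and 1139 CPM after (-0.02 ± 0.40, edgeR adjusted p = 0.983). Of 18 class I genes none was called in either direction (0 higher and 1 lower with all libraries; by the same rule 8.63% of all genes were called). Their median was 0.08 and their values ran from -1.63 to 1.37. B2m, the light chain, stood at 1319 and 3051 CPM before and 1348 and 965 CPM after (-0.92 ± 0.48, edgeR adjusted p = 0.189) and H2-D1 at 2043 and 1563 CPM before and 1380.5 and 1175 CPM after (-0.50 ± 0.31, edgeR adjusted p = 0.261). Class I genes share sequence with each other, so their separate levels are uncertain.

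**Figure D4:**
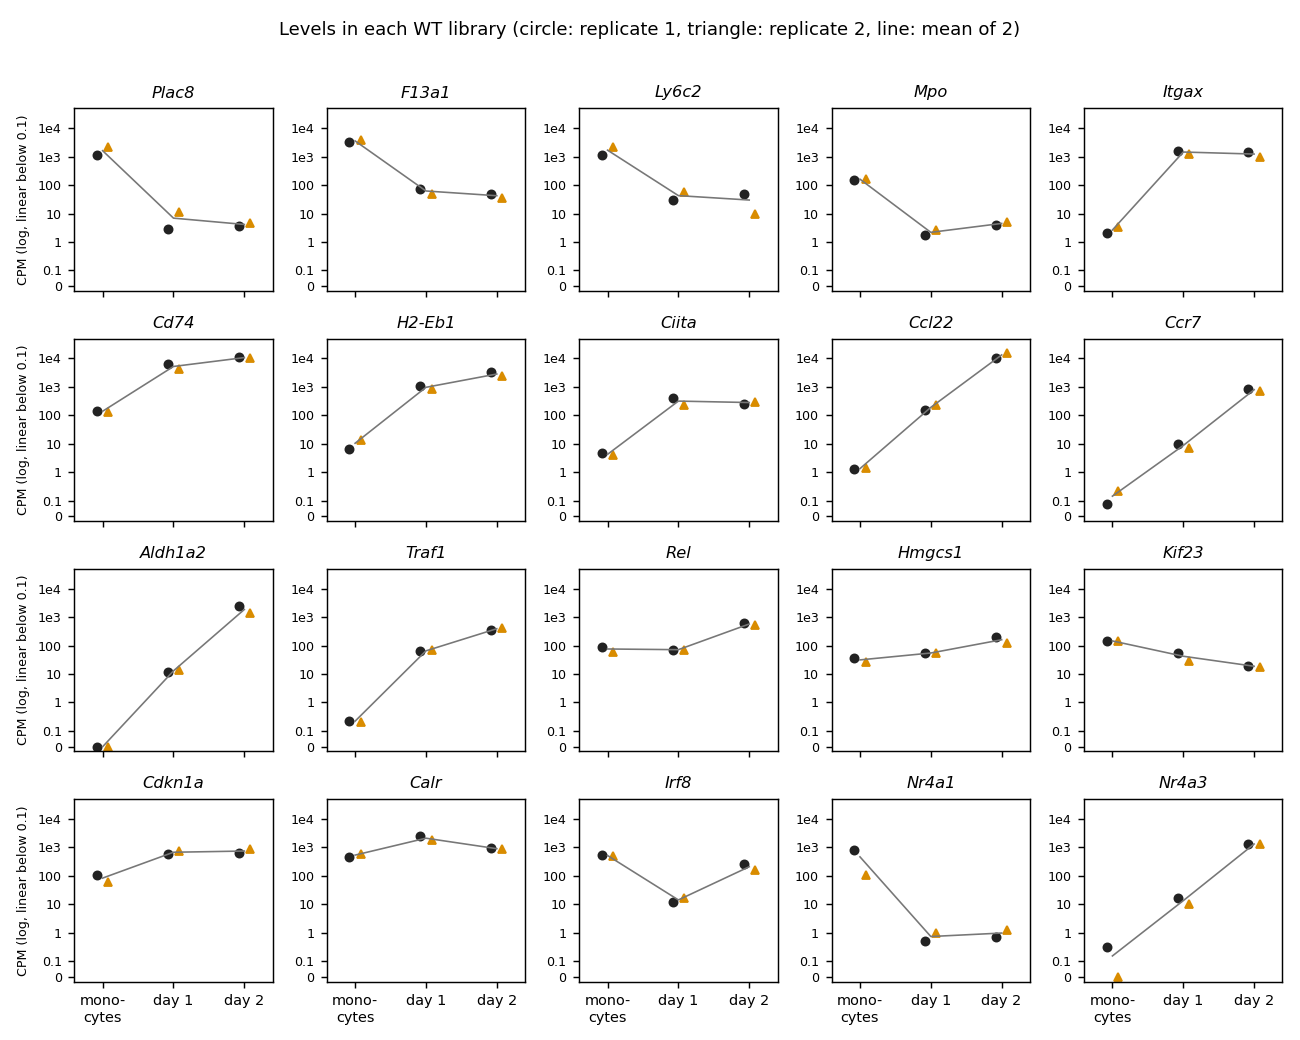
Levels of 20 genes in each WT library (y axis: CPM, log scale, linear below 0.1) at the 3 stages (x axis). Circles are replicate 1, triangles replicate 2, and lines join the means of 2 libraries. Plac8, F13a1 and Mpo are lower by day 1, Itgax, Cd74 and Ciita rise by day 1, and Ccl22, Ccr7, Aldh1a2 and Nr4a3 stand highest at day 2.

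Transcription factors of myeloid fate had 8 of 39 higher and 4 lower (14 and 8 with all libraries), with a median of 0.27. Bhlhe40, a helix-loop-helix repressor, went from 6.59 and 5.69 to 521 and 441 CPM (6.29 ± 0.38, edgeR adjusted p = 1.56e-05). Zbtb46, a zinc finger factor of conventional dendritic cells, went from 0.383 and 0.211 to 73.7 and 97.1 CPM (8.07 ± 0.96, edgeR adjusted p = 0.000332). Stat5a, which carries the GM-CSF signal, stood at 91.2 and 58.5, then 88.3 and 67.3, then 531 and 537 CPM (2.83 ± 0.32, edgeR adjusted p = 0.000270). Cebpd, a C/EBP factor of myeloid cells, fell from 97.5 and 182 to 12.9 and 7.84 CPM (-3.75 ± 0.46, edgeR adjusted p = 0.000390), and Cebpe, Klf2 and Nr4a1 fell with it. Irf8, which directs monocyte and dendritic cell development, was lowest at day 1, at 560.2 and 484, then 12.3 and 16.2, then 263 and 157 CPM. Against monocytes it did not pass (-1.31 ± 0.90, edgeR adjusted p = 0.316), and against day 1 it passed in the fit on all libraries only (3.88 ± 1.00, edgeR adjusted p = 0.0407). Irf5 stood at 618 and 421 CPM before and 722 and 813 CPM after (0.56 ± 0.29, edgeR adjusted p = 0.177).

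The NF-kB pathway rose at several levels. Of 26 genes 11 rose and 1 fell (17 and 2 with all libraries), with a median of 1.53, which was 0.32 at day 1. Of the subunits, Rel stood at 92.7 and 59.6, then 72.9 and 71.2, then 618 and 534 CPM (2.92 ± 0.32, edgeR adjusted p = 0.000219; 3.0 ± 0.32 against day 1) and Relb at 26.4 and 15.5, then 64.3 and 58.3, then 286 and 209 CPM (3.56 ± 0.42, edgeR adjusted p = 0.000328). Rel did not differ from monocytes by more than the monocyte spread at day 1. Map3k14, the kinase NIK of the noncanonical branch, stood at 55.2 and 37.9, then 33.03 and 25.5, then 389 and 342 CPM (2.97 ± 0.37, edgeR adjusted p = 0.000443; 3.64 ± 0.39, edgeR adjusted p = 0.000958 against day 1). Ltbr, the lymphotoxin beta receptor, was the member that fell. Ikbkb, the kinase IKK2, stood at 363 and 258 CPM before and 197 and 157 CPM after (-0.81 ± 0.32, edgeR adjusted p = 0.0960), and Tnip1 at 96.3 and 36.9 CPM before and 147 and 153 CPM after (1.17 ± 0.42, edgeR adjusted p = 0.0714).

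Feedback and target genes of GM-CSF and IL-4 signalling rose in 9 of 24 with none lower (13 and 0 with all libraries), with a median of 4.13. Cish, a STAT5 target that dampens cytokine receptors, stood at 1.07 and 0.211 CPM, then 579 and 568 CPM, then 340.0 and 490.2 CPM (9.23 ± 0.62, edgeR adjusted p = 1.99e-05). Socs2, another STAT5 target, had 3 reads in monocytes, 79.3 and 119 CPM on day 1 and 364 and 652 CPM on day 2 (a ratio of 3762 for WT day 2 over WT monocytes, exact 95% interval 1287 to 18247, edgeR adjusted p = 2.48e-05). Stat3 stood at 311 and 180.0 CPM before and 315 and 274 CPM after (0.26 ± 0.40, edgeR adjusted p = 0.672). Cytokine receptor genes split, with 8 of 35 higher and 5 lower (12 and 8 with all libraries; 11 and 8 without the 2 libraries that stood apart; median 0.14). Among those that rose were Csf2rb2 and members of the gamma common family. Csf2rb2 went from 61.00 and 37.3 to 1326 and 960.4 CPM (4.54 ± 0.59, edgeR adjusted p = 0.000531), Il21r from 0.536 and 1.27 to 162 and 95.1 CPM (7.19 ± 0.51, edgeR adjusted p = 2.47e-05), and Il7r from no reads to 226 and 79.3 CPM (at least 1146-fold higher; adjusted p = 0.000273 by edgeR). Tnfrsf9, the costimulatory receptor 4-1BB, had 1 read in monocytes and 174 and 409.7 CPM on day 2 (a ratio of 6449 for WT day 2 over WT monocytes, exact 95% interval 1157 to 254765, edgeR adjusted p = 0.000586). The 5 that fell were Tnfrsf1a, Il3ra, Ifngr1, Ifnar2 and Il17ra, receptors for TNF, IL-3, the interferons and IL-17. Tnfrsf1b stood at 747 and 419.6 CPM before and 465 and 165 CPM after (-0.89 ± 0.68, edgeR adjusted p = 0.365).

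Promoters were searched for elements of the factors named above, in the 250 bases before the start of each gene in the RefSeq table of GRCm38.p6. The STAT5 element was TTCNNNGAA, the STAT6 element had the same flanks with 4 bases between them in place of 3, and the NR4A element (NBRE) was AAAGGTCA. The kappaB site was taken by its consensus, and each was searched on both strands, overlaps between elements included. Of the 80 named genes that rose, 59 had a promoter in the table. Not all of these 59 were searched, as some were left out by their genome location alone. Among those searched, 18 held an element. A STAT5 element was in 6 of the 18, a STAT6 element in 3, an NBRE in 2 and a kappaB match in 9, and some promoters held more than 1. The 4 of the 18 with the smallest adjusted p are shown, with the elements in capitals, 5' to 3' on the strand of the gene. The 2 with an NBRE are among these 4, and none of the 4 held a STAT5 element. Pdcd1lg2 (chr19:29410669-29410918, + strand) held a kappaB and a STAT6 element, Itgax (chr7:128129300-128129549, + strand) a STAT6 element, and Il21r (chr7:125603179-125603428, + strand) and H2-Eb1 (chr17:34305617-34305866, + strand) an NBRE.
Pdcd1lg2: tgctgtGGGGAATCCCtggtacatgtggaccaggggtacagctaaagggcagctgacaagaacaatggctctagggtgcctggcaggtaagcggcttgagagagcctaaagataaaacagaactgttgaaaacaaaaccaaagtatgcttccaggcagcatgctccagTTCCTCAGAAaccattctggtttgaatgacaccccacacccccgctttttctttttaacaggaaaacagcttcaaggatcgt
Itgax: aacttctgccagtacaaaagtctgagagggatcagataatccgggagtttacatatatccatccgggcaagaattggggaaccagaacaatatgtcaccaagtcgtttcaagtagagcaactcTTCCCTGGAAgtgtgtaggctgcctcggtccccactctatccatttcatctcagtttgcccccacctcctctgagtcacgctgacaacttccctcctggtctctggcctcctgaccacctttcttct
Il21r: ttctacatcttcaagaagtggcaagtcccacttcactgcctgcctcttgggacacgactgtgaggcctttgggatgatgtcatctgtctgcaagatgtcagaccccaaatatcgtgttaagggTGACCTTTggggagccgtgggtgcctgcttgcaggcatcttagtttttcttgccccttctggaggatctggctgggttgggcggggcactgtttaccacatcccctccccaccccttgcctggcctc
H2-Eb1: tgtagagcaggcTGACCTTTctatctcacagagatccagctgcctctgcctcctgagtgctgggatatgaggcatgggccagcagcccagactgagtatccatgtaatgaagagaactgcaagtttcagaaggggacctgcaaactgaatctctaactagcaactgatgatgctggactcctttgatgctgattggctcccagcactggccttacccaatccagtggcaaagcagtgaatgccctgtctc
Over 9769 tested genes with a promoter, 5.87% held a STAT5, 4.72% a STAT6, 0.809% an NBRE and 8.62% a kappaB match. Among the 584 promoters of genes that rose these shares were 5.48%, 3.77%, 1.37% and 11.6%, and among the 349 of genes that fell 7.45%, 4.58%, 0.287% and 7.45%. The NBRE shares rest on 8 of the 584 and 1 of the 349 promoters. A match describes letters and not a bound site, and the shares were not tested.

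Of 25 pattern recognition receptors 1 rose and 2 fell (1 and 4 with all libraries; median -0.85), against 5.39% and 3.24% of all genes. Clec4n, the C-type lectin dectin-2, rose from 3.68 and 9.07 to 726 and 567 CPM (6.68 ± 0.71, edgeR adjusted p = 0.000171). Clec12a, an inhibitory lectin of myeloid cells, fell from 329 and 589.6 to 84.2 and 49.7 CPM (-2.78 ± 0.42, edgeR adjusted p = 0.00119), and Nod1, a cytosolic sensor of peptidoglycan, from 56.1 and 47.4 to 8.17 and 4.17 CPM (-3.06 ± 0.50, edgeR adjusted p = 0.00193). Clec7a (dectin-1) and Tlr2 did not pass, with Clec7a at 398 and 861 CPM before and 418 and 256 CPM after and Tlr2 at 261 and 227 CPM before and 189 and 52.2 CPM after (edgeR adjusted p = 0.163 and 0.311). Of 24 phagocytic, Fc and scavenger receptors 3 rose and 4 fell (4 and 8 with all libraries; median -0.75). Tyrobp, the signalling adaptor DAP12, fell from 1045 and 2176 to 254 and 141 CPM (-3.03 ± 0.46, edgeR adjusted p = 0.00131), Cd300a, an inhibitory receptor, from 284 and 484 to 18.6 and 8.72 CPM (-4.81 ± 0.54, edgeR adjusted p = 0.000258), and Scarb1, the HDL receptor, from 273 and 242 to 32.5 and 31.5 CPM (-3.01 ± 0.33, edgeR adjusted p = 0.000234). Fcer1g, the Fc receptor gamma chain, fell too. Mertk, a receptor for apoptotic cells, rose from 0.230 and 0.105 to 10.47 and 12.9 CPM (5.98 ± 0.81, edgeR adjusted p = 0.000669), and its relative Axl and the scavenger receptor gene Olr1 rose with it. Lrp1 and Fcgr3 did not pass (edgeR adjusted p = 0.344 and 0.440).

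Lysosomal enzymes had 1 of 26 higher and 2 lower (3 and 6 with all libraries; median -0.64), against 5.39% and 3.24% of all genes. Ctsc, which activates granule proteases, fell from 810.4 and 964 to 242 and 179.9 CPM (-2.07 ± 0.32, edgeR adjusted p = 0.00140) and Ctsz rose from 421 and 342 to 1250.1 and 1143 CPM (1.65 ± 0.30, edgeR adjusted p = 0.00321), beside Ctsg above. Ctsb stood at 1402 and 1479.7 CPM before and 1213 and 584 CPM after (-0.68 ± 0.42, edgeR adjusted p = 0.259). Matrix proteases and their inhibitors had 7 of 20 higher and none lower (8 and 0 with all libraries), with a median of 3.19 (2.06 with genes at 0 reads at their bound). Adam8, a membrane protease of leukocytes, stood at 10.3 and 12.7, then 1617 and 1089, then 1106 and 1048 CPM (6.55 ± 0.51, edgeR adjusted p = 3.40e-05), and Mmp12, the macrophage elastase, at 0.153 and 0.949, then 631 and 1330.5, then 1941 and 1007 CPM (11.47 ± 1.01, edgeR adjusted p = 5.56e-05). Spint1, an inhibitor of serine proteases, was highest at day 1, at 0 and 0.738, then 426 and 327, then 115 and 159 CPM (8.68 ± 0.92, edgeR adjusted p = 0.000171). Mmp14 had 2 reads in monocytes and 245 and 103 CPM on day 2 (a ratio of 1995 for WT day 2 over WT monocytes, exact 95% interval 552 to 16480.1, edgeR adjusted p = 0.000251). Mmp8, the neutrophil collagenase, stood at 181 and 449 CPM before and 117 and 40.5 CPM after (-2.0 ± 0.67, edgeR adjusted p = 0.0542).

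Among 33 regulators of actin and cell shape 6 rose and 3 fell (9 and 6 with all libraries; median -0.04). Beside Fscn1, Marcks and Marcksl1, membrane-bound regulators of actin, rose, Marcks from 48.8 and 21.5 to 699 and 530.3 CPM and Marcksl1 from 33.6 and 22.3 to 428 and 514 CPM (4.13 ± 0.48 and 4.07 ± 0.50, edgeR adjusted p = 0.000314 and 0.000373). Myo1e, a membrane-linked myosin, had 2 reads in monocytes, 489 and 319.7 CPM on day 1 and 278 and 324 CPM on day 2 (a ratio of 3376 for WT day 2 over WT monocytes, exact 95% interval 934 to 27882, edgeR adjusted p = 4.40e-05). Coro1a, coronin 1A, fell from 2406 and 5554 to 817 and 906 CPM (-2.21 ± 0.40, edgeR adjusted p = 0.00350), and so did Tmsb10 and Rhob. Tmsb4x, thymosin beta 4, and Actb were among the most abundant messages at both stages (edgeR adjusted p = 0.610 and 0.472).

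Among retinoid genes, the enzyme that makes retinoic acid rose. Of 22 listed genes 12 were high enough to test, 2 rose and none fell (2 and 2 with all libraries), and the median of the tested ones was -1.21. Aldh1a2, that enzyme (ENSMUSG00000013584.5, GRCm38 chromosome 9, 71215789 to 71296243), had no reads in monocytes, 12.2 and 13.7 CPM on day 1 and 2377 and 1359.9 CPM on day 2 (at least 14034-fold higher; adjusted p = 0.000351 by edgeR). Its bound was the highest among the named genes with no reads in monocytes. Dhrs9, an oxidoreductase of retinol and steroids, went from 0 and 1.16 to 90.97 and 179 CPM (7.99 ± 1.31, edgeR adjusted p = 0.00191) and was highest at day 1 (215 and 249.7 CPM). The retinoic acid and retinoid X receptors did not pass, with Rara at 257 and 102 CPM before and 41.1 and 112 CPM after and Rxra at 136 and 64.5 CPM before and 40.02 and 45.9 CPM after (edgeR adjusted p = 0.191 and 0.0535).

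Of 24 cholesterol synthesis genes 11 rose and none fell (16 and 0 with all libraries). The median was 1.77 at day 2 and 0.17 at day 1, both against monocytes. Hmgcs1, HMG-CoA synthase, stood at 37.1 and 25.8, then 53.7 and 56.3, then 194 and 128 CPM (2.35 ± 0.31, edgeR adjusted p = 0.000523), and Cyp51, a lanosterol demethylase, at 26.1 and 27.9, then 54.8 and 33.9, then 161 and 105 CPM (2.30 ± 0.32, edgeR adjusted p = 0.000817). Idi1, which isomerises isopentenyl diphosphate, stood at 7.66 and 9.70 CPM in monocytes, 6.61 and 7.10 CPM on day 1 and 111 and 44.1 CPM on day 2 (3.16 ± 0.44, edgeR adjusted p = 0.000817; 3.50 ± 0.45, edgeR adjusted p = 0.00257 against day 1). In each of these 3 genes both day 2 libraries were above all monocyte and day 1 libraries. Ebp was the only member with a negative value (-1.07 ± 0.36, edgeR adjusted p = 0.0557). Of 30 fatty acid and lipid handling genes 8 rose and 2 fell (12 and 2 with all libraries; median 1.43). Scd1, a stearoyl-CoA desaturase (ENSMUSG00000037071.2, GRCm38 chromosome 19, 44394455 to 44407879), had no reads in monocytes, 0.413 and 0.898 CPM on day 1 and 218 and 228 CPM on day 2 (at least 1676-fold higher; adjusted p = 1.25e-05 by edgeR). Scd2 went from 51.95 and 23.6 to 463 and 628 CPM (3.85 ± 0.55, edgeR adjusted p = 0.000867) and Abcg1, a sterol exporter, from 70.6 and 29.5 to 344 and 299 CPM (2.68 ± 0.42, edgeR adjusted p = 0.00155). Lpl, lipoprotein lipase, peaked at day 1, at 121 and 112, then 6017 and 5924, then 2315 and 2302 CPM (4.31 ± 0.67, edgeR adjusted p = 0.00150). Apoe and Cpt1a, the gatekeeper of mitochondrial fat oxidation, fell. Acly stood at 385 and 193 CPM before and 415 and 405 CPM after (0.50 ± 0.38, edgeR adjusted p = 0.361).

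Energy metabolism was read in 2 lists, against 8.63% of all genes called. Of 27 glycolysis and hypoxia response genes 2 rose and 1 fell (3 and 2 with all libraries; median 0.06), and of 36 genes of oxidative phosphorylation and the tricarboxylic acid cycle none rose and 1 fell (1 and 2 with all libraries; median -0.23). Pfkp, a phosphofructokinase, rose from 123 and 112 to 746 and 1525 CPM (3.27 ± 0.51, edgeR adjusted p = 0.00155) and Aldoc from 1.53 and 0.844 to 35.4 and 41.98 CPM (4.99 ± 0.51, edgeR adjusted p = 0.000136), while Hk3, a hexokinase of myeloid cells, fell from 195 and 199 to 60.8 and 50.1 CPM (-1.83 ± 0.24, edgeR adjusted p = 0.000567). Gapdh stood at 969 and 952 CPM before and 802 and 851 CPM after (-0.22 ± 0.28, edgeR adjusted p = 0.607). Idh2, mitochondrial isocitrate dehydrogenase, fell from 97.2 and 113 to 33.1 and 29.2 CPM (-1.76 ± 0.27, edgeR adjusted p = 0.00145). Atp5b and Atp5a1 of the ATP synthase did not pass (0.44 ± 0.32 and -0.02 ± 0.30, edgeR adjusted p = 0.340 and 0.964).

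Most of the mitosis genes tested and some of those of DNA replication fell. Of 26 mitosis genes 19 fell and none rose (24 and 0 with all libraries), all 26 were negative and the median was -2.23. Kif23, a kinesin of cytokinesis, stood at 146 and 147 CPM in monocytes, 56.9 and 27.7 CPM on day 1 and 19.8 and 17.8 CPM on day 2 (-2.96 ± 0.34, edgeR adjusted p = 0.000278). Ccnb2, cyclin B2, went from 136 and 205 to 22.5 and 21.6 CPM (-2.95 ± 0.35, edgeR adjusted p = 0.000332), and Ube2c, an E2 enzyme of the anaphase-promoting complex, from 132 and 183 to 23.1 and 29.1 CPM (-2.59 ± 0.31, edgeR adjusted p = 0.000343). Mki67, the Ki-67 antigen, was still at 338 and 369 CPM against 593 and 679 CPM in monocytes (-0.85 ± 0.33, edgeR adjusted p = 0.0859). Of 28 DNA replication genes 4 fell and none rose (16 and 0 with all libraries), with a median of -1.22. Cdc45, a part of the replicative helicase, went from 62.9 and 59.2 to 13.8 and 16.9 CPM (-1.99 ± 0.28, edgeR adjusted p = 0.000780) and Mcm5 from 254 and 294 to 56.01 and 57.03 CPM (-2.27 ± 0.38, edgeR adjusted p = 0.00224). Tk1, thymidine kinase, went from 49.5 and 65.8 to 8.74 and 6.95 CPM (-2.87 ± 0.42, edgeR adjusted p = 0.00107), a direction that turned with unstranded counts (0.67). Mcm3 stood at 178 and 95.2 CPM before and 79.5 and 107 CPM after with overlapping groups (-0.55 ± 0.40, edgeR adjusted p = 0.345). The share of cells in cycle cannot be read from these levels.

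Cyclins and their inhibitors had 3 of 19 higher and 2 lower (5 and 5 with all libraries; median -0.54). Cdkn1a, the inhibitor p21, rose from 108 and 59.6 to 624 and 874 CPM (3.16 ± 0.38, edgeR adjusted p = 0.000351) and was at 611 and 747 CPM by day 1. Ccnd1, cyclin D1, went from 0.843 and 0 to 48.5 and 48.8 CPM (6.67 ± 1.01, edgeR adjusted p = 0.00124), and Ccnd2 rose as well. Cdkn2d, the inhibitor p19-INK4d, fell from 105 and 97.7 to 7.94 and 12.4 CPM (-3.32 ± 0.32, edgeR adjusted p = 9.94e-05) and E2f2 from 408 and 325 to 42.9 and 26.4 CPM (-3.40 ± 0.33, edgeR adjusted p = 0.000111). Ccnd3 stood at 488 and 437 CPM before and 76.02 and 195 CPM after (-1.77 ± 0.61, edgeR adjusted p = 0.0596). In the BCL2 family and among death receptors 3 of 21 rose and 1 fell (8 and 1 with all libraries; median 1.25). Bcl2a1d and Bcl2a1a, antiapoptotic genes of the A1 cluster, rose, the first from 0.536 and 0.527 to 361 and 439 CPM and the other from 0 and 2.43 to 194 and 214 CPM (9.52 ± 0.59 and 7.50 ± 1.05, edgeR adjusted p = 1.71e-05 and 0.000817). The copies of this cluster are nearly identical, so their separate levels are uncertain. Cflar, the caspase-8 inhibitor c-FLIP, rose from 87.7 and 30.7 to 334 and 265 CPM (2.34 ± 0.45, edgeR adjusted p = 0.00468) and Bid, a proapoptotic member, fell from 115 and 117 to 26.9 and 29.1 CPM (-2.05 ± 0.28, edgeR adjusted p = 0.000756). Mcl1 stood at 826 and 467 CPM before and 1076 and 928 CPM after (0.63 ± 0.33, edgeR adjusted p = 0.183).

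Stress and interferon genes held no call by a rule that called 8.63% of all genes. Of 35 interferon-stimulated genes none was called in either direction (0 higher and 8 lower with all libraries; 0 and 1 without the 2 libraries that stood apart), and 31 had negative values and the median was -1.71. Stat2, a subunit of the interferon-activated complex ISGF3, was among the 4 positive values, at 129.9 and 93.6 CPM in monocytes and 215 and 324 CPM on day 2 (1.27 ± 0.52, edgeR adjusted p = 0.106), and Parp14 another, at 162 and 90.6 CPM before and 306 and 247 CPM after (1.13 ± 0.58, edgeR adjusted p = 0.181). Of 20 genes of the unfolded protein response none was called (2 and 0 with all libraries; median 0.09). Their median was 1.44 at day 1 against monocytes and -1.17 at day 2 against day 1, comparisons that share the day 1 libraries. Calr, calreticulin, stood at 476 and 602 CPM in monocytes, 2433 and 1805 CPM on day 1 and 957 and 856 CPM on day 2 (0.75 ± 0.29, edgeR adjusted p = 0.0869), and Hsp90b1, the chaperone GRP94, at 499.9 and 646, then 1616 and 2079, then 672 and 591 CPM (0.14 ± 0.33, edgeR adjusted p = 0.786). For both genes the day 1 libraries were the highest of the 6.

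Several of the largest changes lay outside these lists. Among the 12 largest rises were genes with no reads in either monocyte library. Ramp3, a partner of the calcitonin-type receptors, reached 11.3 and 10.2 CPM on day 1 and 156 and 228 CPM on day 2 (at least 1443-fold higher; adjusted p = 0.000354 by edgeR). Lad1, the anchoring filament protein ladinin, reached 230.4 and 138 CPM (at least 1383-fold higher; adjusted p = 0.00163 by edgeR), and Flrt3, an adhesion molecule of neurons and epithelia, 93.4 and 134 CPM (at least 855-fold higher; adjusted p = 0.000171 by edgeR). Mab21l3 reached 253 and 202 CPM (at least 1711-fold higher), Snn, stannin, 163 and 128 CPM (at least 1095-fold higher) and the kinase gene Alpk2 57.4 and 115 CPM (at least 647-fold higher; edgeR adjusted p = 4.35e-05, 4.46e-05 and 0.000439). Among the 12 largest falls, Rspo1, an R-spondin that amplifies Wnt signals, went from 15.2 and 6.75 CPM to no reads (at least 60.7-fold lower; adjusted p = 0.00719 by edgeR). Hpgd, which inactivates prostaglandins, went from 59.5 and 105 CPM to 2 reads (a ratio of 652 for WT monocytes over WT day 2, exact 95% interval 180.3 to 5389, edgeR adjusted p = 0.000109) and Fcnb, ficolin B, a lectin of the complement system, from 53.9 and 118 CPM to 3 reads (a ratio of 448 for WT monocytes over WT day 2, exact 95% interval 153 to 2173, edgeR adjusted p = 3.41e-05). Nat8l, which makes N-acetylaspartate, fell from 73.7 and 56.8 to 0.345 and 0.253 CPM (-7.71 ± 0.64, edgeR adjusted p = 4.46e-05), and Ms4a8a from 39.8 and 94.6 to 0.230 and 0.379 CPM (-7.75 ± 0.75, edgeR adjusted p = 0.000107). Krt80, a keratin, went from 128 and 80.5 to 1.15 and 0 CPM (-7.43 ± 1.35, edgeR adjusted p = 0.00343).

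Per kilobase of exon, the 10 most abundant genes of monocytes and those of day 2 had 5 in common, Tmsb4x, mt-Co1, Actb, Gm23935 and Gm42418. Gm23935, the first in monocytes, stood at 14321 and 32402 CPM per kb there and 6138 and 5832 CPM per kb at day 2. Its exon length is only 57 bp, so its value per kb is far above its CPM and its rank depends on that length. In monocytes Lyz2, lysozyme, stood at 13041 and 33117 CPM per kb, against 2883 and 380.1 CPM per kb at day 2, where the libraries differed over 7-fold, and it passed only with all libraries (-3.82 ± 1.03, edgeR adjusted p = 0.0230). At day 2 Cd74 stood at 6607 and 6201, Ccl17 at 4940 and 7275 and Ccl22 at 4622 and 6870 CPM per kb. In the monocytes the same 3 genes were at 85.4 and 80.8, 2.09 and 4.51, and 0.560 and 0.590 CPM per kb. Only Tmsb4x and mt-Co1 stood above Cd74 among genes at day 2 in the mean of both libraries. Cst3, cystatin C, stood at 2605 and 4141 CPM per kb and passed only with all libraries (1.73 ± 0.50, edgeR adjusted p = 0.0318).

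Markers of other cells were read for the same libraries, by a rule that called 8.63% of all genes. B cell markers had 1 of 8 tested lower, Ighm, the heavy chain of IgM, which went from 392.3 and 512 to 13.7 and 6.58 CPM (-5.48 ± 0.53, edgeR adjusted p = 0.000103). It made up most of the summed B cell level of 402 and 529 CPM in monocytes and 20.8 and 13.5 CPM on day 2, while the B cell genes Ms4a1, Vpreb3 and Igll1 were too low to test. T and NK markers summed to 3.29 and 8.86 CPM before and 4.14 and 3.03 CPM after, with 1 of 4 tested higher and 1 lower with all libraries only, and 10 of 14 too low to test, Cd3e, Cd3d and Cd3g among them. Erythroid markers summed to 74.1 and 178 CPM before and 103 and 115 CPM after, of which Car2, carbonic anhydrase 2, was 48.9 and 97.4 CPM on day 2 and the member that rose (4.28 ± 0.63, edgeR adjusted p = 0.00109). Hbb-bs, a beta globin, stood at 36.4 and 107 CPM before and 34.96 and 9.23 CPM after (-1.69 ± 0.75, edgeR adjusted p = 0.127). Basophil and mast cell markers summed to 12.3 and 16.5 CPM before and 36.9 and 41.6 CPM after, with Cd200r3 higher (5.98 ± 1.12, edgeR adjusted p = 0.00395) but not without the 2 libraries that stood apart, where none was called. Markers of conventional dendritic cells summed to 970.3 and 771 CPM before and 1120.5 and 2381 CPM after, with Zbtb46 the only one of 9 called and Xcr1 too low to test. Tissue macrophage markers summed to 289 and 387 CPM before and 277 and 159 CPM after, where Mertk, C1qc and C1qb were higher (5 of 9 without the 2 libraries that stood apart) and Adgre1, the F4/80 antigen, stood at 221 and 346 CPM before and 164 and 77.4 CPM after (-1.23 ± 0.64, edgeR adjusted p = 0.183). Eosinophil markers summed to 3.91 and 3.69 CPM before and 20.01 and 7.71 CPM after, with none of 6 called. Plasmacytoid markers summed to 116 and 109 CPM, then 140.3 and 139 CPM, with Pacsin1 higher and Siglech too low to test. Stromal and endothelial markers summed to 39.8 and 34.7 CPM and then 5.98 and 5.44 CPM, with none of 6 called (0 higher and 3 lower with all libraries), and progenitor markers to 47.9 and 42.9 CPM and then 66.1 and 90.5 CPM, with none of 7 called. The part of these cells in the changes above was not tested.

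Day 2 was also tested directly against WT day 1, where 72 genes were higher (0.513%) and 19 lower (0.135%) by the same rule, and 656 (4.67%) and 493 (3.51%) with all libraries. The day 1 samples include the library whose file is named for 16 h, the 2 days also come from different experiments, and this comparison shares the day 2 libraries with the one against monocytes. Of the 72 higher genes, 56 also rose against monocytes, and 6 did not pass against monocytes in the fit on all libraries. In 40 of the 72 the day 1 mean lay below the monocyte mean. Several of the genes that rose from day 1 stood at day 1 near their monocyte level. Slc4a8, a bicarbonate transporter, stood at 0.613 and 1.48 CPM in monocytes, 1.32 and 0.490 CPM on day 1 and 97.3 and 89.5 CPM on day 2 (6.67 ± 0.62, edgeR adjusted p = 0.000617 against day 1). Vopp1 stood at 20.5 and 15.1, then 14.7 and 16.3, then 279 and 269 CPM (4.14 ± 0.34, edgeR adjusted p = 0.000310) and Atmin, a zinc finger factor, at 39.8 and 29.4, then 31.1 and 32.2, then 213 and 195 CPM (2.69 ± 0.26, edgeR adjusted p = 0.000752). Chosen after their values were seen, Pdcd4 stood at 85.3 and 47.7, then 3.30 and 5.30, then 123 and 226 CPM (5.34 ± 0.70, edgeR adjusted p = 0.00281), Cytip, a partner of cytohesin, at 419 and 467, then 87.7 and 85.1, then 835 and 1027 CPM (3.43 ± 0.36, edgeR adjusted p = 0.000958), and Dpp4, the peptidase CD26, at 31.3 and 56.4, then 1.57 and 1.63, then 34.8 and 25.7 CPM (4.23 ± 0.47, edgeR adjusted p = 0.00132). For these 3 genes both day 1 libraries were the lowest of the 6 with those of day 2 and monocytes above them. Likewise chosen, Ly75, the uptake receptor DEC-205, went from 3.75 and 2.74 and 8.09 and 9.96 CPM to 474 and 519.7 CPM (5.78 ± 0.47, edgeR adjusted p = 0.000310). From the 19 genes lower than at day 1, 5 were likewise chosen after their values were seen. Srm, spermidine synthase, stood at 13.1 and 10.7, then 169 and 134, then 12.5 and 19.7 CPM (-3.23 ± 0.37, edgeR adjusted p = 0.00139), Nolc1, a nucleolar protein, at 43.8 and 33.1, then 214 and 165, then 47.3 and 50.6 CPM (-1.95 ± 0.28, edgeR adjusted p = 0.00392), and Mettl1, a tRNA methyltransferase, at 7.13 and 12.4, then 59.7 and 62.02, then 5.29 and 8.98 CPM (-3.09 ± 0.43, edgeR adjusted p = 0.00346). Fcgr2b, the inhibitory Fc receptor, stood at 166 and 183, then 1319 and 1913, then 277 and 332 CPM (-2.41 ± 0.32, edgeR adjusted p = 0.00313), and H2-DMb1, an MHC class II editor, at 57.5 and 69.9, then 791 and 697, then 173 and 152 CPM (-2.19 ± 0.31, edgeR adjusted p = 0.00371). In Srm, Nolc1 and Mettl1 the day 2 values were back within 2-fold of the monocyte means.

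The same span was read in Nr4a3 KO cells to see where the WT change differs from it, by the interaction of genotype and day. Of 14034 genes, 4 passed in the fit on all libraries (0.0285%), against 478 at an unadjusted p under 0.05, and none passed in every fit that left out 1 of the 8 libraries. All 4 rose in WT cells. In KO cells Scd1 and Traf1 had positive changes, Atmin a change of -0.35 and Slc4a8 one of -2.61 on the log2 scale. Slc4a8 stood at 3.43 and 1.49 CPM in KO monocytes and 0.500 and 0.327 CPM at KO day 2, against the 97.3 and 89.5 CPM of WT day 2. Scd1 stood at 0.714 and 0.993 CPM before and 22.3 and 30.5 CPM after, Traf1 at 2.14 and 1.77 CPM before and 267 and 213 CPM after, and Atmin at 53.9 and 48.7 CPM before and 42.9 and 37.5 CPM after. In WT cells Traf1 was at 0.230 and 0.211 CPM before and 362 and 425 CPM after, so its genotypes differed already in monocytes. For other members the KO values stood as follows, with differences that did not pass (edgeR adjusted p = 0.171 or more). Map3k14 was at 53.2 and 43.8 CPM before and 55.02 and 33.4 CPM after and Vopp1 at 23.6 and 20.9 CPM before and 63.9 and 36.9 CPM after, and for both genes the KO day 2 libraries lay below those of WT day 2. Aldh1a2 was at 15.3 and 0.654 CPM at KO day 2, Fscn1 at 107 and 23.6 CPM and Ccr7 at 98.04 and 9.08 CPM. Itgax reached 1852 and 1654 CPM, Cd74 13671 and 16073 CPM and Pdcd1lg2 314 and 403 CPM in KO cells. A p that misses the threshold does not show that the genotypes changed alike.

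The day 2 libraries differed from each other most in the genes of sex and in a set of others. Beside Xist, replicate 1 was higher in Apol7c (533 and 42.6 CPM), Tlr8, a sensor of single-stranded RNA (61.2 and 3.92 CPM), the growth factor gene Igf1 (42.7 and 2.53 CPM), Rnf128 (47.04 and 2.53 CPM) and Saa3, a serum amyloid (54.6 and 4.05 CPM). Replicate 2 was higher in Slc7a5, a transporter of large amino acids (20.4 and 305 CPM), Cd69 (3.34 and 59.9 CPM), Plek2 (2.19 and 68.2 CPM) and Hs3st3b1 (2.65 and 49.9 CPM), beside the Y-linked Eif2s3y. KO day 2 libraries of the same number, which share the experiments, differed in the same direction in these 9 genes, for example in Apol7c (491 and 12.02 CPM) and Slc7a5 (23.3 and 171 CPM). Between the monocyte libraries the widest were Lmtk2, Egr1, Hectd4, Fam160b2, Zmiz1 and Hipk2, higher in replicate 1 (Zmiz1 at 294 and 34.8 CPM), and CT010467.1, S100a4, S100a9, S100a8, Usmg5 and Wfdc17, higher in replicate 2 (Wfdc17 at 65.6 and 307 CPM).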

How the data were processed

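Poly(A) RNA of sorted bone marrow monocytes and of cells cultured with GM-CSF and IL-4 was sequenced from 12 libraries in 6 groups of 2, made from 20 ng of RNA with 16 PCR cycles and a stranded kit, per the labels' protocols. The submitters' processing notes name Trimmomatic 0.35, STAR 2.5.1b and GRCm38. The deposited files hold raw whole-number counts of reads per gene, in 3 columns for unstranded counting and each strand. Column 4 was used (the other strand held 3.63% to 5.33% of the gene reads of both strands together). The annotation release was not given in the sources used here. Of 47643 identifiers, 47224 matched a GENCODE M21 symbol.

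Genes were filtered with filterByExpr and tested with edgeR 4.0.16 in R 4.3.3 (TMM scaling, robust quasi-likelihood fit, 1 mean per group, all 12 libraries, so that all groups share the estimate of the spread). The call rule, the CPM scale and the floor of 3 counts are given where first used. Alternatives were DESeq2 1.42.0, other scalings and filters, fits on the compared groups alone, unstranded counts, replicate or experiment blocks and leaving out libraries. Counts were simulated for WT day 2 against WT monocytes over 14034 genes, with 100 genes changed 4-fold and 100 changed 16-fold. The changed genes were drawn only from those above a minimum mean CPM, so recovery at lower levels was not measured. Of the 4-fold changes 59% and of the 16-fold changes 95% passed the fit on all libraries. The call rule was passed by 11% and 76%, so a gene that was not called may still have changed. No replicate pair agreed within sampling noise.

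Members and gene lists were chosen with earlier results of these data known. Named genes were, per list, up to 4 called members with the smallest adjusted p and up to 2 abundant members that did not pass, besides the 12 largest rises and falls, the 10 most abundant genes per kb, the 6 widest replicate ratios in each direction and the 6 leading interaction genes. The markers Ly6c2, Ccr2, Itgam, H2-Ab1, Mgl2, Cd86 and Cd209a were named as defining markers. Other members named beside a count of 5 or fewer (Ceacam1, Eno3, Egr2, Vsir, Tnfsf14, Ccl8, Itgb1, Itgb7, Ltbr, Il17ra, Fcer1g, Axl, Olr1, Tmsb10, Rhob, Apoe, Cpt1a, Ccnd2 and the like) were chosen after their values were seen. Some members of the lists are counted but not reported by name here.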

Additional observations from a re-analysis of the deposited data

Results flagged for a closer look

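The change from monocytes to day 2 differed between Nr4a3 KO and WT cells in 4 genes by the test of the difference itself (edgeR's interaction of genotype and day on all libraries). All 4 rose in WT cells, and the KO changes were 4.94 for Scd1, 6.93 for Traf1, -0.35 for Atmin and -2.61 for Slc4a8. For Slc4a8 the KO change minus the WT change was -9.12 ± 0.87 on the log2 scale (edgeR adjusted p = 0.00925, 0.0140 to 0.0965 when each of the 8 libraries was left out in turn). For Scd1 it was -9.40 ± 0.97 (edgeR adjusted p = 0.0195, 0.0451 to 0.144), a size that depends on the prior count because the WT monocytes held no read. For Atmin it was -2.91 ± 0.36 (edgeR adjusted p = 0.0266, 0.0416 to 0.366) and for Traf1 -3.80 ± 0.47 (edgeR adjusted p = 0.0266, 0.0451 to 0.272). Traf1 had 3 and 2 reads in WT monocytes (0.230 and 0.211 CPM), against 2.14 and 1.77 CPM in KO monocytes. At day 2 it stood at 362 and 425 CPM in WT and 267 and 213 CPM in KO cells. The ratio between the genotypes was thus larger in monocytes than at day 2. Slc4a8 passed in 3 of the 8 fits that left out a library, and Scd1, Atmin and Traf1 in 1 each.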

How the results depend on the processing

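Of 1624 alternative values for 125 called genes, 1619 kept direction and passed the adjusted p threshold in the single fit of that setting. For each gene these values include the 4 fits that left out 1 WT library. A called gene had to pass those 4 fits, so that part of the 1619 was fixed by the call rule. Passing a single fit is laxer than the call rule, which also needs the left-out fits. By the call rule counts fell to 445 and 251 on the compared groups alone. Cflar (2.32), Coro1a (-2.21), Ctsz (1.64) and Pola1 (-1.44) did not pass in the single fit on the compared groups alone. Tk1 turned to 0.67 with unstranded counts, where it cannot be told apart from reads on the other strand. Counts against monocytes, 756 higher and 455 lower, became 1165 and 690 with no filter, 1155 and 766 with DESeq2, 445 and 251 on the compared groups alone, 1778 and 1388 with all libraries alone, 964 to 2629 and 513 to 1804 in single fits without 1 library, and 729 and 666 without the 2 libraries that stood apart. Counts against day 1, 72 and 19, became 458 and 155 with no filter, 418 and 188 with DESeq2, 61 and 1 on the compared groups alone, 416 and 292 without the 2 libraries, 656 and 493 with all libraries alone, and 100 to 208 and 40 to 63 in single fits without 1 library. The 4 interaction genes became 93 with no filter, 37 with DESeq2, 0 on the compared groups alone, 1 without the 2 libraries, and 0 to 59 without 1 library, 59 being without WT monocytes replicate 1. Same-number deviations correlated at 0.044 between WT monocytes and WT day 2 and at -0.034 between WT day 1 and WT day 2, so the numbers were not taken to pair the WT stages compared, but at 0.657 between WT and KO day 2, 0.236 between WT and KO monocytes and 0.276 between WT monocytes and WT day 1. With the replicate number as a block the counts were 826 and 541 against monocytes, 120 and 48 against day 1 and 7 for the interaction, and with terms for the 2 experiments within monocytes and day 1 and the 2 within day 2, which do not separate day from experiment, 141 and 43 against day 1 and 7 for the interaction. Without the 2 libraries that stood apart, the counts against monocytes rest on 1 WT monocyte library and on fewer left-out fits than the call rule. The causes of these moves were not tested. The all-library rule and the length bins without a library were added after seeing the data.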
